A study of Mus musculus with 2 samples.

Results

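The replication-dependent histone genes were taken as every protein-coding gene whose GENCODE M21 symbol begins with Hist1h, Hist2h, Hist3h or Hist4h. There were 67 such genes among the 21755 protein-coding genes on chromosomes 1 to 19 and X. Within each of these name families, neighbouring genes whose start coordinates lay no more than 200 kb apart formed 1 block, which gave 6 blocks. Hist1 on chromosome 13 split into a first block of 18 genes (chr13:21715763-21837530), the second of 5 (chr13:22035164-22043676) and the third of 31 (chr13:23531050-23934851). Hist2 held 10 genes (chr3:96219865-96270132), Hist3 held 2 (chr11:58948920-58956830) and Hist4 held 1 (chr6:136801553-136804415). All positions are mm10.

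CTCF was mapped by chromatin immunoprecipitation and sequencing with a CTCF antibody in kidney tissue of newborn B6NCrl mice, at 0 days after birth. The 2 libraries formed 1 group, with no treatment, second genotype or second age to compare. Both carried the same biosample and donor identifiers, so the spread between them may be technical. The deposited peak lists hold no read counts, so depth is unknown and each signal value is used here only as a percentile within its own list, from 0 for the weakest to 100 for the strongest peak.

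CTCF is a zinc-finger protein that binds a long DNA motif, marks many insulators and stops loop extrusion by cohesin in a manner that depends on motif direction. Replication-dependent histone genes are short, mostly lack introns, end in a stem-loop in place of a poly(A) tail and are transcribed mainly in S phase, when new DNA must be packed into nucleosomes. They lie in clusters of near-identical copies, in which H2A and H2B genes often share a promoter region read in both directions.

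Sequences are shown for the motif matches on which the account of strong and weak peaks turns. These are the match under the highest-signal peak of each block's window (the block and 50 kb on each side) and under each histone promoter peak that had one. Capitals mark the 19 bases that matched a CTCF matrix learned from these peaks, whose consensus was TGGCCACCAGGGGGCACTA, and each is written 5′ to 3′ on its own strand. The highest-signal peak of the second Hist1 block had no match, so no sequence is given for it.
First Hist1 block, chr13:21714904-21714932, + strand: gtttgTGGCCACAAGATGGCAGAAaagag
The third Hist1 block, chr13:23598166-23598194, - strand: tttggAAACCACTAGGTGGCGCTGcgagg
Hist2, chr3:96284689-96284717, + strand: caataAGCCCTCTAGGTGGAGCAAgcgcc
Hist3, chr11:58928117-58928145, + strand: cggccAGGCCACCAGGGGGAGACTgccta
Hist4, chr6:136847979-136848007, - strand: ttaggATGCCGCCAGGGGGCAGCActgag
Hist1h4j promoter, chr13:21734272-21734300, - strand: ctggaTGGCCACTAGAGGGCACTCttgac
Hist1h4c promoter, chr13:23697554-23697582, - strand: gccatCTGCCACAAGAGGGCGGCGttatt
Hist2h4 promoter, chr3:96263465-96263493, - strand: gtaagGAACCGGTAGAGGGCAGAGaagag

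Of the 67 histone genes, 16 (23.9%, 95% Wilson interval 15.3% to 35.3%) had a summit of the optimal list within 1 kb of a transcription start site (TSS). The same was true of 39.4% of all protein-coding genes. The optimal list is the larger of the authors' lists thresholded by IDR (irreproducible discovery rate), with 65470 peaks on the chromosomes used. Which comparison set its threshold is not known here. A place in it does not show that a peak was among the strongest of both libraries. The 16 genes rested on 15 distinct peaks, because Hist1h2ak shared a peak with Hist1h2bn, Hist1h2ab shared a peak with Hist1h3b, and Hist1h1c had 2. Neighbouring genes are therefore not independent, and the Wilson intervals cover counting error only. In the smaller conservative list 8 histone genes (11.9%) had a promoter peak, against 36.6% of all protein-coding genes.

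**Figure D1:**
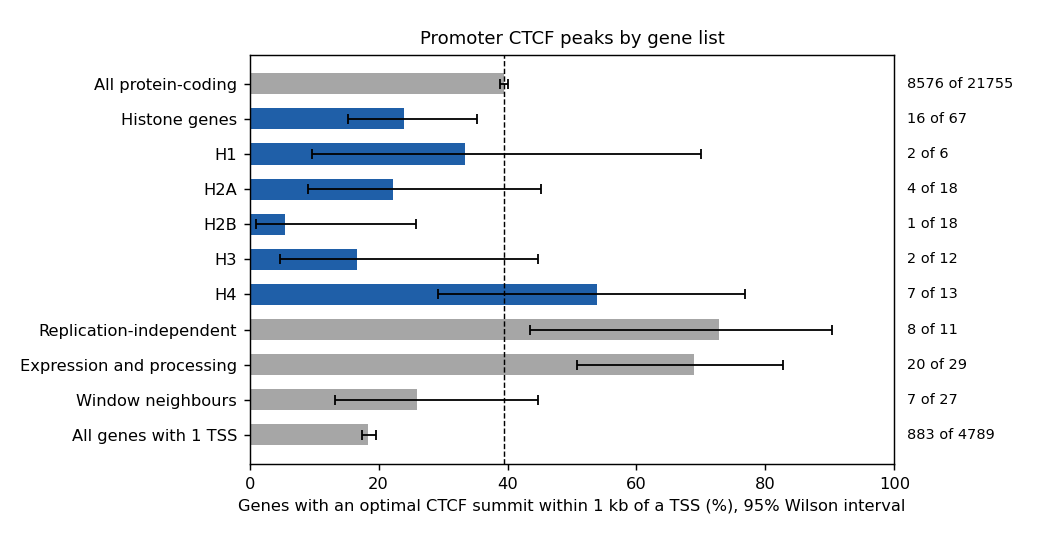
Share of genes with an optimal CTCF summit within 1 kb of a TSS (horizontal axis, %), by gene list, with 95% Wilson intervals and the number of genes at the right; the dashed line is the share of all protein-coding genes, 39.4%. H4 genes reached 53.8% and H2B genes 5.56%.

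H4, the core histone that pairs with H3 at the centre of the nucleosome, had 7 of 13 genes with a peak (53.8%, interval 29.1% to 76.8%). H2A had 4 of 18 (22.2%, interval 9.0% to 45.2%) and H2B, its dimer partner, had 1 of 18 (5.56%, interval 0.988% to 25.8%). H3 had 2 of 12 (16.7%) and H1, the linker histones that bind between nucleosomes, had 2 of 6 (33.3%). The intervals of H4 and H2B did not overlap, but the contrast was not seen in both libraries. In the 65470 strongest peaks of replicate 1, as many as the optimal list holds, H4 had 6 of 13 genes (46.2%) and H2B 0 of 18, whereas in those of replicate 2 H4 had 4 of 13 (30.8%) and H2B 5 of 18 (27.8%). The classes also differed in how much of their promoter sequence is unique in the genome, as given below, and its part in these counts was not tested.

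The 7 H4 genes spanned nearly the whole range of signal. Hist1h4j (chr13:21735064-21735837, + strand) had the strongest histone promoter peak, at percentile 91.9 of the optimal list, with its summit 779 bp upstream of the TSS. Hist1h4c followed at percentile 85.8, with a summit 53 bp past the 3′ end of this short gene, and Hist2h4 at 80.4, with a summit 174 bp upstream. These 3 peaks are the ones with a motif match, printed above, and all 3 matches read on the minus strand. The matches were of unlike strength, with matrix scores of 23.6 at Hist1h4j, 19.8 at Hist1h4c and 12.9 at Hist2h4. Hist1h4f had a peak at percentile 56.6 only 28 bp upstream of its TSS, without a match (best score 10.5). The other H4 peaks were weak, with Hist1h4a at percentile 21.4, Hist1h4b at 6.24 and Hist4h4 at 4.15. Of these, Hist1h4a lay 979 bp from its TSS, the member just inside the 1 kb limit. Just outside it were Hist1h2bj, with a summit at 1105 bp and percentile 88.5, and Hist1h3a, with a summit at 1155 bp and percentile 11.2, the peak counted for its neighbour Hist1h1a.

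Among the other classes, stronger peaks were at Hist1h3e and Hist3h2a. Hist1h3e, an H3 gene of the third Hist1 block, had a peak at percentile 71.3 centred 939 bp upstream of the TSS. Hist3h2a had a peak at percentile 64.3 in its gene body, and the same peak lay within 1 kb of a TSS of Trim17, a neighbouring gene. Neither peak had a motif match. The linker histone genes with peaks were Hist1h1c, with 1 peak at percentile 30.03, 54 bp from its TSS, and another at 6.38, and Hist1h1a at 11.2. Hist2h2ab had a peak at percentile 16.0 that also lay at a promoter of Bola1. The 2 shared peaks were weak, at percentile 11.03 for Hist1h2ab and Hist1h3b and 2.20 for Hist1h2ak and Hist1h2bn. Summits lay upstream of the gene for 9 of the 16 genes, in the gene body for 5 and past the 3′ end for 2. Each of the 2 shared peaks was counted as upstream for 1 of its genes and in the body of the other. The same shares over all genes are not given here.

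Histone genes formed 13 divergent pairs, in which neighbours on opposite strands start close together, with TSSs 176 to 660 bp apart, 12 of them an H2A and an H2B gene, and together they held 26 of the 67 genes. In the optimal list 1 pair, Hist1h2ak with Hist1h2bn, had a promoter peak. The count moved with the library, from 0 pairs in the strongest peaks of replicate 1 to 4 in those of replicate 2. The other pairs of replicate 2 were Hist1h2ac with Hist1h2bc, Hist2h2ac with Hist2h2be, and Hist1h2bl with Hist1h2ai, where the peak was at Hist1h2ai. The same count over all divergent gene pairs is not given here, so it is not known whether these counts are unusual. Most paired genes had under 75% unique words (32-base words that occur once in the genome, as given below). Of all protein-coding genes, 11.8% had a promoter peak at 50% to under 75% unique words and 1.35% under 25%. The part of uniqueness in the pair counts was not tested.

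The libraries were set side by side through the upper set of each library's own list, its 65470 strongest peaks, which begin at percentile 78.2 of its whole list. In replicate 1, 11 histone genes (16.4%) had a promoter peak in that set, against 39.1% of all protein-coding genes. In replicate 2 there were 18 (26.9%), against 39.2%. Both libraries had a peak at 6 histone genes (8.96%), against 33.5% of all genes. These were Hist1h4j, Hist1h4c, Hist1h4f, Hist2h4, Hist1h3e and Hist3h2a, the 6 with the strongest optimal peaks.

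For these 6 genes the libraries gave close percentiles in their whole lists. Hist1h4j was at 97.9 in replicate 1 and 98.2 in replicate 2, and Hist1h4c at 96.7 and 97.1. Hist2h4 was at 94.5 and 97.3, Hist1h3e at 93.2 and 94.5, Hist3h2a at 92.2 and 93.0, and Hist1h4f at 91.0 and 89.6. All 12 values lay above the limit of the upper sets because the 6 genes were chosen that way. Their closeness is therefore no separate sign of agreement between the libraries.

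**Figure D2:**
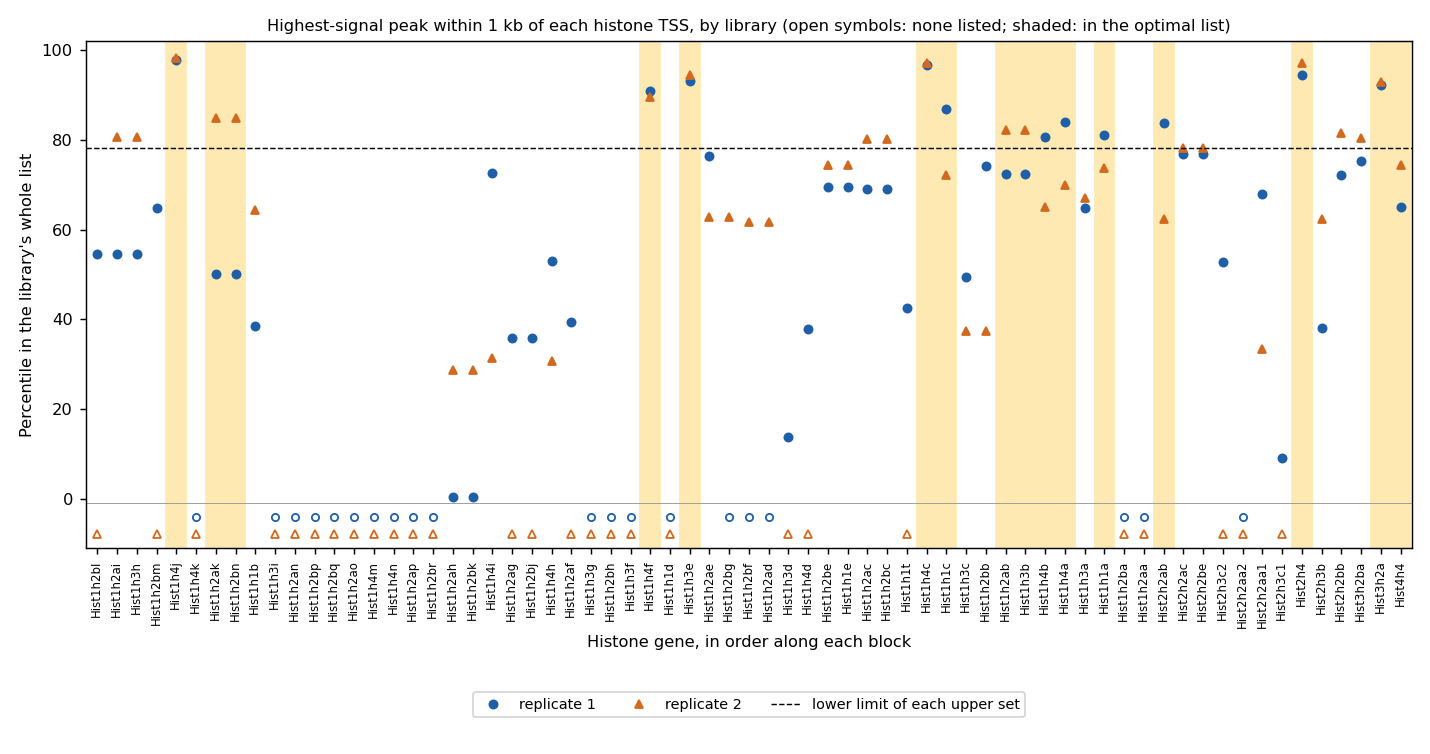
Percentile in each library's whole list (vertical axis) of the highest-signal peak within 1 kb of each histone TSS, for the 67 genes in order along the blocks; circles are replicate 1, triangles replicate 2, open symbols below the line mark no listed peak, shading marks genes with an optimal peak, and the dashed line is the lower limit of the upper sets, percentile 78.2. For 6 genes both symbols lie above that line, and for 17 genes both are open.

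The remaining genes with an upper-set peak had it in 1 library. Replicate 1 alone had 5 genes (7.46%, against 5.56% of all genes), namely Hist1h1a, Hist1h1c, Hist1h4a, Hist1h4b and Hist2h2ab. Replicate 2 alone had 12 (17.9%, against 5.70% of all genes), of which 5 were H2A, 5 H2B and 2 H3 genes, resting on 8 peaks. H2A genes were in both groups.

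The strongest listed peak at the 5 genes of replicate 1 lay at percentiles 80.7 to 86.8 there and 62.4 to 73.7 in replicate 2. At the 12 genes of replicate 2 it lay at 78.3 to 85.0 there and 50.03 to 76.8 in replicate 1. Some of these calls fell close to the limit of 78.2 and others did not. Hist2h2ac and Hist2h2be were at 76.8 in replicate 1 and 78.3 in replicate 2, on either side of it. Hist1h2ak and Hist1h2bn, by contrast, were at 50.03 and 85.0, and Hist1h2ai and Hist1h3h at 54.6 and 80.7. The optimal peak nearest the TSS of Hist1h1c was at 86.8 in replicate 1 and 65.9 in replicate 2, and that of Hist2h2ab at 83.8 and 62.4. The optimal peak of Hist4h4 was below the limit in both libraries, at 13.9 in replicate 1 and 73.4 in replicate 2. With 2 libraries of 1 biosample, a difference between libraries cannot be told apart from technical spread.

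In the whole lists, which hold many weak peaks, 37 histone genes had a promoter peak in both libraries, 13 in 1 library and 17 in neither. The 17 made up 25.4% of the histone genes, against 23.4% of all protein-coding genes with no peak in either. Among the 51 histone genes without an optimal peak, 21 (41.2%) had a peak in both whole lists, against 40.4% of all protein-coding genes without one. They were 2 H1 genes (Hist1h1b and Hist1h1e), 6 H2A genes (Hist1h2ae, Hist1h2ac, Hist1h2ai, Hist1h2ah, Hist2h2aa1 and Hist2h2ac), 7 H2B genes (Hist1h2bb, Hist1h2bc, Hist1h2be, Hist1h2bk, Hist2h2bb, Hist2h2be and Hist3h2ba), 4 H3 genes (Hist1h3a, Hist1h3c, Hist1h3h and Hist2h3b) and 2 H4 genes (Hist1h4h and Hist1h4i). Of these, Hist3h2ba had a promoter peak in the conservative list, although it had none in the optimal list.

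The 13 genes with a peak in 1 whole list were 10 in replicate 1 (Hist1h2bl, Hist1h2bm, Hist1h2ag, Hist1h2bj, Hist1h2af, Hist1h3d, Hist1h4d, Hist1h1t, Hist2h3c1 and Hist2h3c2) and 3 in replicate 2 (Hist1h2bg, Hist1h2bf and Hist1h2ad). The 17 genes in neither list were concentrated in the first Hist1 block, which held 10 of them. Those were Hist1h4k, Hist1h3i, Hist1h2an, Hist1h2bp, Hist1h2bq, Hist1h2ao, Hist1h4m, Hist1h4n, Hist1h2ap and Hist1h2br. The third block held Hist1h3g, Hist1h2bh, Hist1h3f, Hist1h1d and the divergent pair Hist1h2ba and Hist1h2aa, and Hist2 held Hist2h2aa2.

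Histone genes are near-copies of each other, so the uniqueness of the sequence around each 5′ end was measured as the share of 32-base words within 1 kb that occur once in the genome. The median was 75.4% for histone genes and 98.5% for all protein-coding genes. Histone genes with an optimal promoter peak had a median of 86.3% and those without 69.0%. By class the median was 98.7% for H1, 86.8% for H4, 75% for H3, 67.1% for H2B and 66.1% for H2A.

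Genes were then set beside others of like uniqueness. Of the 11 histone genes with at least 90% unique words, 5 had a promoter peak (45.5%), and of all protein-coding genes in that range 44.4% had one. These 11 were the 6 H1 genes with Hist1h2be, Hist1h4c, Hist1h4d, Hist2h4 and Hist4h4, and none was an H2A or H3 gene. Class and uniqueness were therefore not separated. The strongest peaks of the 5 were at percentiles 85.8 (Hist1h4c), 80.4 (Hist2h4), 30.03 (Hist1h1c), 11.2 (Hist1h1a) and 4.15 (Hist4h4). Only Hist1h4c and Hist2h4 had one in both upper sets. Below 90%, 11 of 56 histone genes had a peak (19.6%), and 17.6% of all protein-coding genes. In the lowest range, under 25%, 0 of 8 histone genes and 1.35% of all genes had one. How reads that map to several copies were treated is not stated in the labels or files used here, and the part of uniqueness in the lower count of histone genes was not tested.

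**Figure D3:**
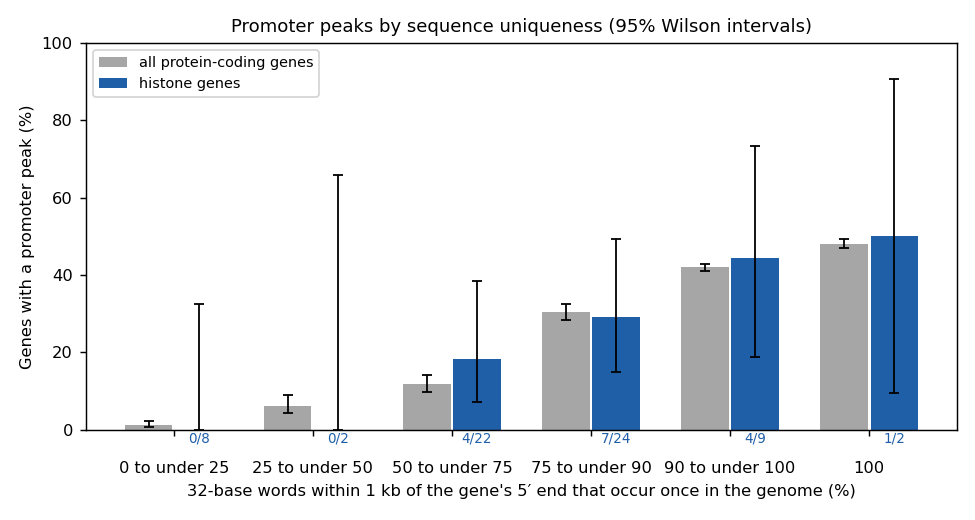
Share of genes with an optimal promoter peak (vertical axis, %) by the percentage of 32-base words within 1 kb of the 5′ end that occur once in the genome; grey bars are all protein-coding genes, blue bars histone genes with their counts beneath, and error bars are 95% Wilson intervals. Blue bars stand at 18.2%, 29.2% and 44.4% in the ranges from 50 to under 75, 75 to under 90 and 90 to under 100, and grey bars at 11.8%, 30.3% and 42.0%.

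Other properties of histone promoters moved the background in different directions. Of the histone genes, 58 fell in the 3 deciles of all genes with the highest CpG ratio (the observed over the expected number of CG dinucleotides within 500 bp of the 5′ end). In those deciles 15 of 58 histone genes (25.9%) had a promoter peak, against 57.6% of all genes. Conversely, 63 of 67 histone genes (94.0%) had 1 annotated TSS, against 22.0% of all genes, and among all genes with 1 TSS 18.4% had a promoter peak. With the 5′ end as the only start site of each gene, 31.3% of all genes had a promoter peak and histone genes again 16 (23.9%).

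The clearest case of duplicated sequence lay at the end of the first Hist1 block, where 6 genes form 2 copies of a trio in opposite orientation. Hist1h2bq, Hist1h2ao, Hist1h2ap and Hist1h2br had 0% unique words, Hist1h4m had 4.31% and Hist1h4n 4.57%. The 60 bases just before the TSS of Hist1h4m, shown because they occur unchanged before the TSS of Hist1h4n and nowhere else on the chromosomes searched, are as follows.
Hist1h4m, chr13:21811686-21811745, + strand, and Hist1h4n, chr13:21832197-21832256, - strand: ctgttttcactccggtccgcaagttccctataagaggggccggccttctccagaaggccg

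None of these 6 genes had a peak in either whole list. They sit in a longer stretch without any optimal summit that began at the shared peak of Hist1h2ak and Hist1h2bn and ran for 175 kb, to chr13:21928754. It covered 10 histone genes without a promoter peak, and 9 of those had no peak in either whole list. The exception was Hist1h1b, a linker histone gene with 98.5% unique words, at percentile 38.5 in replicate 1 and 64.3 in replicate 2. Across the genome, neighbouring optimal summits lay a median of 14.2 kb apart, and 3.72% of spacings were longer than this one. The stretch was picked as the longest of its window. That share counts spacings and not bases, so it does not give how often a gene falls in so long a stretch.

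The 6 block windows together held 64 optimal peaks. That was 53.6 per Mb, against 25.6 per Mb across the genome. The spans from the first to the last histone gene of each block held 26 of them (43.7 per Mb) and the flanks 38 (63.3 per Mb). The windows held 6 peaks at the first Hist1 block, 6 at the second, 22 at the third, 13 at Hist2, 12 at Hist3 and 5 at Hist4. Genome tiles of the same lengths held medians of 4, 2, 10, 3, 2 and 2. The counts of Hist2 and Hist3 lay above the 95th percentile of their tiles, at 12 and 9, and those of the other windows did not. The tiles came from all chromosomes used, and chromosomes differed in density. Chromosome 11 had 40.8 peaks per Mb against 111 in the Hist3 window, and chromosome 3 had 20.4 against 86.5 in the Hist2 window. Chromosomes 13 and 6 had 22.1 and 25.4 per Mb.

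**Figure D4:**
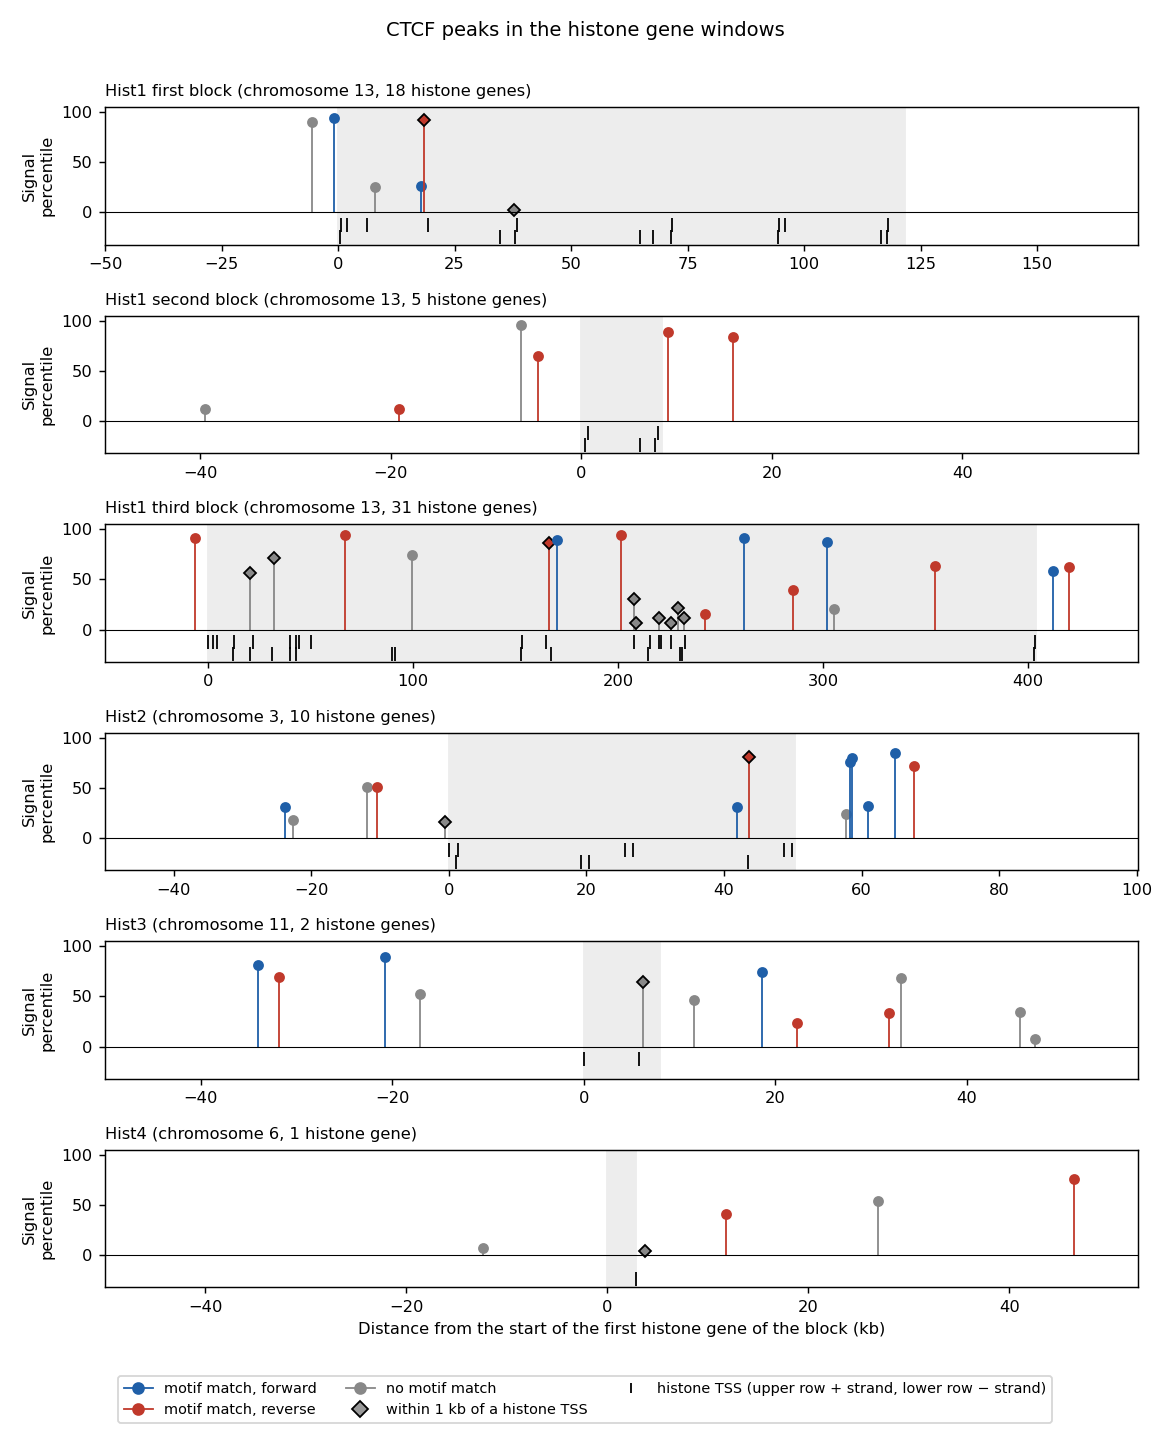
Optimal CTCF peaks in the 6 block windows, by distance in kb from the start of the first histone gene (horizontal axis) and signal percentile in the optimal list (vertical axis); blue and red mark motif matches on the forward and reverse strand, grey no match, diamonds peaks within 1 kb of a histone TSS, grey shading the span of the histone genes and ticks their TSSs by strand. In the first Hist1 block the right-hand part of the span has no peak, and at the third block 12 of 22 peaks have a match.

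Peaks of the first Hist1 block were at its left side. The strongest, at percentile 94.2 and with the match printed above, lay 1223 bp from the TSS of Hist1h2bl, the first gene. The promoter peak of Hist1h4j was next, and the outermost peak, at percentile 90.6 without a match, lay 6031 bp from Hist1h2bl. On the right, the outermost was the weak peak shared by Hist1h2ak and Hist1h2bn. The 3 matches read forward, forward and reverse from left to right.

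The second Hist1 block had 0 peaks among its 5 genes and strong peaks on both sides. The strongest, at percentile 95.2, lay 6706 bp from Hist1h2ah and had no match. To the right were peaks at percentiles 88.5 and 83.4, 1105 and 7917 bp from Hist1h2bj, the latter the outermost on that side. The outermost on the left was weak, at percentile 12.1 and 39919 bp from Hist1h2ah. All 4 matches of this window read on the reverse strand.

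In the third Hist1 block the strongest peak, at percentile 94.5, lay in the body of Hist1h2be, which has a long annotated transcript, 16579 bp from the nearest histone TSS, that of Hist1h4d. The next, at 93.7 and 91.3, lay 6134 bp from Hist1h1c and 29012 bp from Hist1h1a. The outermost peaks were at percentile 90.8, 6225 bp from Hist1h4h, and 61.9, 16673 bp from Hist1h2aa. A run of weak promoter peaks, at percentiles 6.24 to 30.03, ran from Hist1h1c to Hist1h1a. The window held 4 forward and 8 reverse matches.

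Hist2 had its strongest peak, at percentile 84.6, in the body of Fcgr1, an Fc receptor gene, 14966 bp from Hist2h2bb. The promoter peak of Hist2h4 was next at 80.4, followed by one at 79.3, 8785 bp from Hist2h2bb. The outermost were at percentile 31.1 on the left and 71.5 on the right. Between the promoter peaks of Hist2h2ab and Hist2h4, the 42.5 kb from the former to a peak 1509 bp from Hist2h4 had no summit and held 6 genes without a promoter peak. Those 6 genes had a median of 41.9% unique words, ranging from 19.5% to 82.0%, and 1 of them had no peak in either whole list.

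The Hist3 window had its strongest peaks on the left, at percentiles 89.4 and 81.3, which lay 20792 and 34007 bp from Hist3h2ba; the latter was the outermost. The next, at 74.5, lay 12856 bp from Hist3h2a, and the outermost on the right was weak, at 7.34. At Hist4 the strongest was also the outermost on the right, at percentile 76.1 and 43572 bp from Hist4h4. It was followed by peaks at 54.2 and 41.2, and the outermost on the left was at 7.34.

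The 15 distinct histone promoter peaks had a median percentile of 21.4 in the optimal list, against 42.6 for all 10898 promoter peaks. That order did not hold in every list: in the conservative list the median of the histone promoter peaks was 64.5 and that of all promoter peaks 40.8. In the upper sets of single libraries the medians lay closer, at 39.7 and 43.4 in replicate 1 and 38.6 and 42.4 in replicate 2. The other 49 window peaks had a median of 61.9. In the upper sets, 6 of the 15 histone promoter peaks were found in both libraries, 8 in 1 and 1 in neither, whereas 39 of the other 49 were found in both. These counts went with signal: all 36 window peaks above percentile 50 were found in both libraries, 6 of them at histone promoters. The same count over all promoter peaks was not made, so it is not known whether 6 of 15 is unusual. Of the 17 window peaks above percentile 80, 3 were at histone promoters, those of Hist1h4j, Hist1h4c and Hist2h4.

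Motif matches followed the same division. Of the 64 window peaks, 36 had a match within 100 bp of the summit (56.2%), against 63.6% of all optimal peaks and 2.76% of windows 2 kb away. Among the histone promoter peaks the count was 3 of 15 (20%, interval 7.05% to 45.2%), against 35.3% of all promoter peaks. Elsewhere in the windows it was 33 of 49 (67.3%). The 3 histone promoter peaks with a match were at percentiles 80.4 to 91.9, and the 12 without ranged from 2.20 to 71.3. A match is a description of the letters. A separate matrix, learned in the same way from simulated windows, found 65.2% of the sites planted in them. The recovery of the matrix used here was not measured, so a peak without a match may still hold a motif. The match at Hist1h4j lay wholly in soft-masked, repeat-annotated sequence, as did 11 of the 19 bases at Hist2h4.

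**Figure D5:**
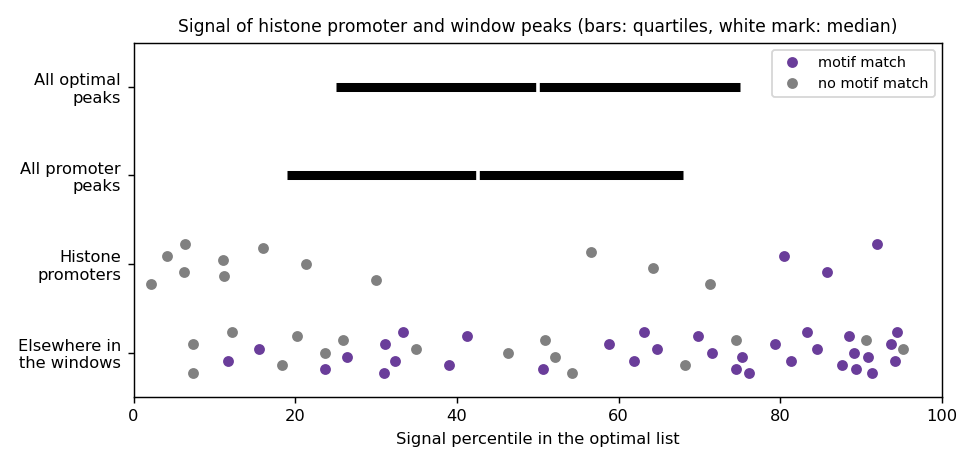
Signal percentile in the optimal list (horizontal axis) of each histone promoter peak and each other peak of the block windows, in purple where a motif match was found and grey where not; black bars are the quartiles, with a white mark at the median, of all promoter peaks and all optimal peaks. The 3 purple histone promoter peaks lie at percentiles 80.4 to 91.9, to the right of all 12 grey ones.

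Genes outside the clusters that encode histones or handle their mRNA were counted in the same way. Of 11 histone genes listed as replication-independent, whose expression is not confined to S phase, 8 had a promoter peak (72.7%, interval 43.4% to 90.3%), against 39.4% of all protein-coding genes. The interval did not overlap that of all replication-dependent genes. It did overlap that of replication-dependent genes with at least 90% unique words (45.5%, interval 21.3% to 72.0%), a group mostly of H1 and H4 genes. The 11 genes had a median of 98.5% unique words and 2 annotated TSSs, against 75.4% and 1 for the replication-dependent genes. Their median CpG ratio was 0.845, in a CpG decile of all genes where 58.0% had a promoter peak. The part of uniqueness, TSS number and CpG ratio in these contrasts was not tested. H2afz, the gene of H2A.Z, was at percentile 86.3, H3f3b, a gene of H3.3, at 68.2, H2afv at 64.5 and H2afx at 59.3. Cenpa, H2afj and H3f3a had none, and H2afj lies in the Hist4 window.

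Of 29 genes of histone gene expression, mRNA processing and chaperones, 20 had a promoter peak (69.0%, interval 50.8% to 82.7%), against 39.4% of all protein-coding genes. Lsm11, a subunit of the U7 snRNP that cuts histone mRNA, had the strongest, at percentile 99.97. Asf1b, a histone chaperone, was at 97.2, Coil, the Cajal body protein coilin, at 91.6, and Pou2f1, which activates H2B promoters, at 81.2. Slbp, the stem-loop binding protein, had no optimal peak, although both libraries had one in their upper sets, at percentiles 82.0 and 83.9 of the whole lists. Casp8ap2 and Cdk2 also had none. The median number of annotated TSSs was 6 in this list and 1 for the histone genes, and its median share of unique words was 97.7%. Its median CpG ratio was 0.823, in a CpG decile where 58.0% of all genes had a promoter peak. The part of these properties in its share was not tested. Among the 27 other protein-coding genes in the windows, 7 had a promoter peak (25.9%, interval 13.2% to 44.7%).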

How the data were processed

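CTCF ChIP-seq peak lists of 2 libraries were used. The authors deposited 1 list per library, 1 of both pooled, and conservative and optimal lists thresholded by IDR (irreproducible discovery rate), on mm10, per the file headers and notes; no header or label used here names the aligner, the peak caller, its filters or the IDR threshold (not given in the sources used here). The deposited signal value was used as a rank within its list. The summit offset, a further column the authors deposited, placed each summit. Sequence came from GRCm38.p6 and genes from GENCODE M21.

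A gene had a promoter peak where a summit lay within 1 kb of any annotated TSS (93145 in all). The 19-base motif matrix was learned from odd-numbered chromosomes without soft-masked bases and without the block windows; a match scored above all but 1 in 10000 positions of control windows. Word uniqueness used 32-base words every 5 bases, both strands. Python 3.11.15, numpy 2.4.6, pandas 2.3.3, scipy 1.17.1, numba 0.67.0 and matplotlib 3.10.9 were used. No test between groups was possible; counts are given with 95% Wilson intervals.

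The counting steps were tested on simulated data and gave the direct count. A matrix learned from simulated windows recovered 65.2% of the motif sites in them, and the matrix that made the sites 70.7%. A first criterion for this check, which that learned matrix missed, was replaced by this comparison. The matrix learned from the peaks was not itself checked on simulated sites.

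Named are every histone gene with a promoter peak, the others by class and block, the 3 strongest and the outermost peaks of each window, and of each further list up to 4 genes with the strongest peak and up to 3 without. The members and lists were chosen with earlier results of these data known.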

Additional observations from a re-analysis of the deposited data

How the results depend on the processing

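The 16 histone genes with a promoter peak became 8 in the conservative list, 6 with the 50% of optimal peaks of highest signal (against 19.8% of all genes), 26 within 2500 bp (38.8%, against 49.9%) and 7 within 250 bp (10.4%, against 25.6%). In single libraries the count ranged from 11 to 18. In each of these settings the share of histone genes lay below that of all genes. The 64 window peaks became 36 with the 50% of highest signal and 26 without flanks, and 60 to 71 in single libraries. The median percentile of histone promoter peaks, 21.4, became 64.5 in the conservative list, where it lay above that of all promoter peaks (40.8), 28.2 within 2500 bp (45.0) and 11.2 within 250 bp (40.6), and 38.6 to 39.7 in single libraries. The share of window peaks with a match, 56.2%, became 72.2% with the 50% of highest signal (all peaks 76.3%), 12.5% at a cut-off of 1 in 100000 control positions (14.9%) and 18.8% with a matrix learned from all sequence (25.4%); in single libraries it was 50.7% to 61.7%. No paired analysis was possible because the 2 libraries form 1 group. Depth is unknown, so an unlisted peak does not show that CTCF was absent.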

Other observations

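Transfer RNA genes lie in the windows of the Hist1 blocks, and the distance of peaks to them was looked at after the peak positions were seen. Of the 64 window peaks, 6 (9.38%) had a summit within 1 kb of a RefSeq tRNA gene, against 104 of all 65470 optimal peaks (0.159%). All 6 lay in the flanks of the first and second Hist1 blocks, outside the span of the histone genes. The windows held 30 of the 403 tRNA genes. Of those 30, 7 (23.3%) had a summit within 1 kb, against 27.8% of all tRNA genes. The strongest peak of the second block, at percentile 95.2 and without a motif match, lay 361 bp from a tRNA gene, and the outermost left peak of the first block, at 90.6 and also without a match, lay 468 bp from one.

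The nearest optimal summit lay a median of 5.755 kb from a histone TSS, against 2.521 kb for all protein-coding genes. Within 10 kb a summit was found for 46 histone genes (68.7%), against 69.6% of all genes, and within 5 kb for 31 (46.3%), against 59.3%.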
